A study of Homo sapiens with 4 samples.

Results

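The ATF4-CHOP amino acid stress genes described here are 10 genes, namely ATF4, ATF3, DDIT3, TRIB3, CHAC1, ASNS, PSAT1, SESN2, DDIT4 and STC2. They were found as every probe set whose platform annotation names one of these symbols alone, which gave 17 of the 54613 probe sets and 10 of the 19775 genes on the array. Gene expression was measured in 4 derivatives of PC-3, an established line grown from a human prostate cancer metastasis, with 1 Affymetrix array per line. The long-telomere group held LhTERTL/cre+, labelled as having basal hTERT, and LhTERTL, labelled as overexpressing hTERT, the gene TERT that encodes the reverse transcriptase of telomerase. The short-telomere group held mock/cre+ and mock, both labelled as having basal hTERT. Cre is a recombinase that cuts out DNA between its target sites, and the labels give it only as cre+ in the line names. All 4 lines were grown to near confluency with no drug or other treatment beyond the labelled Cre and hTERT status. The labels do not say whether a line is a clone or a pool.

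When amino acids run short, or unfolded protein collects in the endoplasmic reticulum, kinases phosphorylate the translation factor eIF2, general translation slows and the ATF4 message is translated more. ATF4 is a basic leucine zipper transcription factor that, with C/EBP partners, switches on genes for amino acid synthesis, uptake and tRNA charging, and also DDIT3, which encodes CHOP. CHOP and ATF3 are further transcription factors of the response, and TRIB3 feeds back on it. Since ATF4 is controlled largely at translation, its mRNA need not follow its activity.

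The deposited values are log2 values with the median of the 4 arrays taken off each probe set. A value of 0 is therefore the middle of the 4 lines for that probe set, differences between lines can be read, and levels of expression cannot. A gene's value is the mean of its probe sets. The SD of all values on an array lay between 0.179 and 0.335. To check the labelled hTERT status, TERT was read, and its first probe set stood at -0.16 in LhTERTL/cre+, 3.54 in LhTERTL, -0.12 in mock/cre+ and 0.12 in mock, while the second stood lowest in LhTERTL, at -0.66. The authors' deposited table of lower probe sets carries the values of LhTERTL and mock/cre+ under each other's names. Their deposited table of higher probe sets has these values under the same names as the full table. All values given here are those of the full table, in which the first TERT probe set is high in the column named LhTERTL. Were the full table the one with exchanged names, the statements on these lines would swap. No line was measured more than 1 time, so the replicates of a group are separate lines and a p-value reflects the differences among lines alone. With so few arrays the precision is low. For a single gene the smallest p that an exact two-sided permutation test can reach here is p = 0.333. Epithelial, leukocyte, fibroblast and endothelial markers could not serve to check the cell type without levels. The 4 epithelial genes differed by a median of -0.14 in mock/cre+ minus mock (log2), the 3 measured leukocyte genes by -0.12, the 4 fibroblast genes by 0.12 and the 4 endothelial genes by 0.11. In LhTERTL/cre+ minus LhTERTL the medians were -0.57, 0.09, 0.05 and 0.31 for the same lists, with the epithelial genes CDH1 at -1.68 and EPCAM at -1.15. The other epithelial genes, KRT8 at 0.08 and KRT18 at 0.01, did not fall, so that list did not move as a set.

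The promoter sequences of the members are shown first for the site that ATF4 binds together with a C/EBP protein. It was searched as TGATGNAA on both strands in the 250 bases before each gene start listed by RefSeq (GRCh38.p14). All 10 members were matched, with 16 listed starts, and 3 members had a match at 3 of these starts. Over all genes of the table, 3.89% had a match. In ASNS the matching letters begin 68 bases before the first listed start, in CHAC1 209 bases before it on the opposite strand, and in the more upstream start of ATF3 191 bases before it. These 3 stretches are given 5′ to 3′ on the gene's strand with the matching letters in capitals. The last 2 stretches, in lower case throughout, belong to DDIT3 and SESN2, the members that stood furthest below the other lines in mock/cre+, and hold no match to these letters in this window.
ASNS, chr7:97872409-97872658, minus strand: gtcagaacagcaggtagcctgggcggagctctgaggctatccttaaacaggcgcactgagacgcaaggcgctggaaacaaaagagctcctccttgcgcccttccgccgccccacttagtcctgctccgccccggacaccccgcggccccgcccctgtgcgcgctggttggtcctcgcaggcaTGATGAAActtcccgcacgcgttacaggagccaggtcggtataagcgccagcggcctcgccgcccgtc
CHAC1, chr15:40953221-40953470, plus strand: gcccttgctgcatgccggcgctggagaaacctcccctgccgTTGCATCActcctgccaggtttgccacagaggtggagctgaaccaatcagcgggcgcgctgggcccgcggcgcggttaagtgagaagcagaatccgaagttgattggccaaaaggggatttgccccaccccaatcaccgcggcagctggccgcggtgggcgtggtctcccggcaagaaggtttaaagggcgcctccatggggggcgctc
ATF3, chr1:212565157-212565406, plus strand: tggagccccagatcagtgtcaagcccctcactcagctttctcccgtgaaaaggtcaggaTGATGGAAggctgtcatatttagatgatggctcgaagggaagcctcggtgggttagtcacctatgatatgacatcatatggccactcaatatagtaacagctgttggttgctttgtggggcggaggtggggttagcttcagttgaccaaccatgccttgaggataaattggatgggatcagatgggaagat
DDIT3, chr12:57520518-57520767, minus strand: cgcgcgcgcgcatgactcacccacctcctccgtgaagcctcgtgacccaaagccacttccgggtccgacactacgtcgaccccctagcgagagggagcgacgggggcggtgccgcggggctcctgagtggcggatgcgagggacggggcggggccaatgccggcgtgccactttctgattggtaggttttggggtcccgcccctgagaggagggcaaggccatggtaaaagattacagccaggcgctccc
SESN2, chr1:28259268-28259517, plus strand: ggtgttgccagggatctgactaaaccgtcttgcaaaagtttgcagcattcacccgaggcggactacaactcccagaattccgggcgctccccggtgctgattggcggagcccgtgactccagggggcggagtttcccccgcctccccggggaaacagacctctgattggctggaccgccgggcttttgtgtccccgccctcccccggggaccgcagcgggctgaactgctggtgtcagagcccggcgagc
Matching letters are a description of the sequence only. Of the 3 members with a match, ATF3 had its highest gene mean in LhTERTL, and ASNS and CHAC1 had theirs in mock.

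All 10 members had their lowest value in mock/cre+, the cre+ line with short telomeres. Over all genes on the array, 30.4% were lowest in that line. The members and the lists below were chosen with earlier results of these data known, so such counts are a description only. In these bulk samples a low value in some of the cells and a low value in all of them cannot be told apart. The highest gene mean was in LhTERTL for 4 members (ATF3, DDIT4, TRIB3 and STC2), where 27.6% of all genes were highest. For the other 6 it was in mock, where 28.7% of all genes were highest. Single probe sets departed from this. Highest were mock in 203438_at of STC2, LhTERTL in 205047_s_at of ASNS and LhTERTL/cre+ in 223062_s_at of PSAT1. The range over the 4 lines was at least 1 on the log2 scale, which is 2-fold, in 7 members, against 7.16% of all genes. The median range of the members was 1.58, against 0.32 for all genes.

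**Figure D1:**
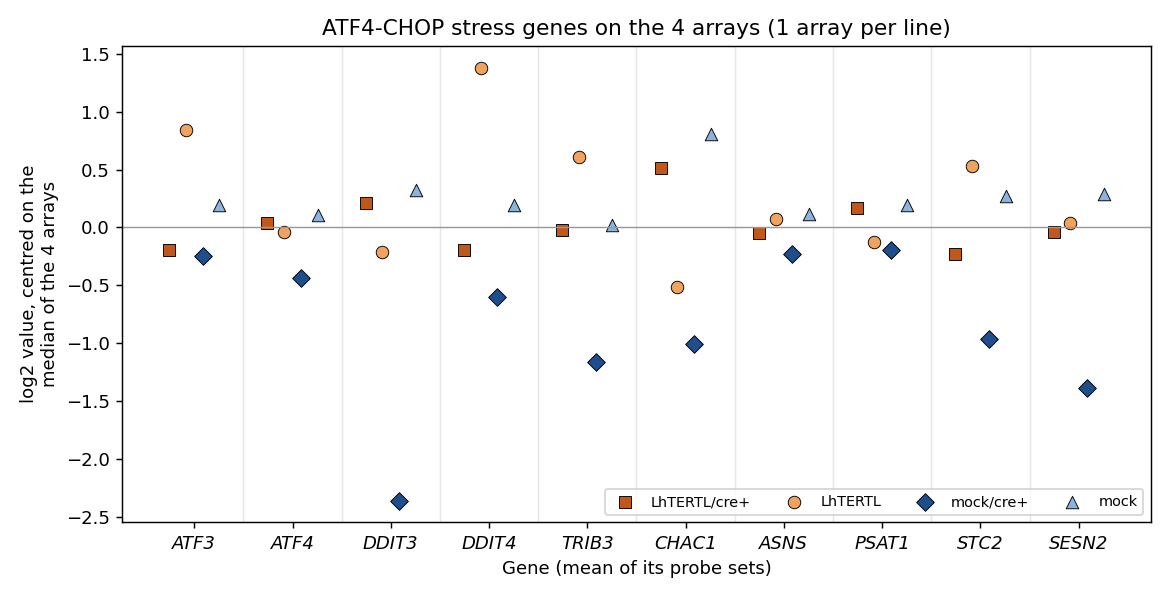
Centred log2 value (y axis) of each of the 10 genes (x axis) on the 4 arrays, with 1 point per line and no error bars, since each line has 1 array. The dark blue diamond of mock/cre+ is the lowest point of every gene, furthest down at -2.36 for DDIT3.

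Among the transcription factors of the members, ATF4 itself had the narrowest range, at 0.54, which was above the median of 0.32 for all genes. Its 1 probe set stood at 0.04 in LhTERTL/cre+, -0.04 in LhTERTL, -0.43 in mock/cre+ and 0.11 in mock. The first, second and last of these lines lay within 0.15 of each other, and mock/cre+ lay below them.

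DDIT3, the proapoptotic factor CHOP, had the widest range of the 10, at 2.68. It stood at 0.21 in LhTERTL/cre+, -0.21 in LhTERTL, -2.36 in mock/cre+ and 0.32 in mock. In mock/cre+ minus mock, DDIT3 ranked 2 from the lowest of 19775 genes. The lowest was BHLHA15, a transcription factor of secretory cells, at -3.16, which was looked up after its value was seen. In LhTERTL/cre+ minus mock/cre+, DDIT3 was the highest gene on the array, at 2.57, and that comparison uses the same mock/cre+ array.

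ATF3, a repressor and activator induced by many stresses, followed another order. Its gene mean was -0.19 in LhTERTL/cre+, 0.84 in LhTERTL, -0.25 in mock/cre+ and 0.19 in mock, so LhTERTL stood above the other 3 and both cre+ lines stood below both lines without Cre. Its 3 probe sets differed in size. Probe set 202672_s_at spanned 1.97 over the lines and 1554980_a_at spanned 1.21, while 1554420_at spanned 0.10.

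TRIB3, a pseudokinase that binds ATF4 and CHOP and restrains them, stood at -0.02 in LhTERTL/cre+, 0.61 in LhTERTL, -1.16 in mock/cre+ and 0.02 in mock. Its 2 probe sets gave the same order for the highest and the lowest line, with ranges of 1.55 and 1.99. CHAC1, which breaks down glutathione and is a target of the ATF4-CHOP branch, was at 0.51 in LhTERTL/cre+, -0.51 in LhTERTL, -1.01 in mock/cre+ and 0.81 in mock. For CHAC1, LhTERTL/cre+ and mock both stood above LhTERTL and mock/cre+.

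The amino acid synthesis genes had the narrowest ranges of the 10. ASNS, which makes asparagine, stood at -0.04 in LhTERTL/cre+, 0.08 in LhTERTL, -0.23 in mock/cre+ and 0.12 in mock. Its 2 probe sets disagreed. The first, 205047_s_at, stood at -0.12, 0.30, -0.42 and 0.12 in the same 4 lines, and the second, 241082_at, at 0.03, -0.15, -0.03 and 0.12. The gene mean therefore understates the spread of the first probe set, whose range was 0.73. PSAT1, the aminotransferase of serine synthesis, stood at 0.16 in LhTERTL/cre+, -0.13 in LhTERTL, -0.19 in mock/cre+ and 0.19 in mock. Its order of lines was that of CHAC1, with a range of 0.39.

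The members that restrain mTORC1, the growth kinase complex that senses amino acids, differed from each other. SESN2, a leucine-binding sestrin, stood at -0.04 in LhTERTL/cre+, 0.04 in LhTERTL, -1.38 in mock/cre+ and 0.29 in mock. Both of its probe sets put mock/cre+ lowest, at -1.26 and -1.51. DDIT4, also called REDD1, was at -0.20 in LhTERTL/cre+, 1.38 in LhTERTL, -0.60 in mock/cre+ and 0.20 in mock. For DDIT4 the line furthest from the rest was LhTERTL, and for SESN2 it was mock/cre+. STC2, a secreted glycoprotein induced by the response, stood at -0.23 in LhTERTL/cre+, 0.53 in LhTERTL, -0.96 in mock/cre+ and 0.27 in mock, and both of its probe sets had mock/cre+ lowest.

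Across the probe sets of the members, 15 of 17 were lowest in mock/cre+, against 29.7% of all probe sets. The exceptions were 241082_at of ASNS, which was lowest in LhTERTL, and 1554980_a_at of ATF3, in which LhTERTL/cre+ at -0.16 and mock/cre+ at -0.15 were nearly level.

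**Figure D2:**
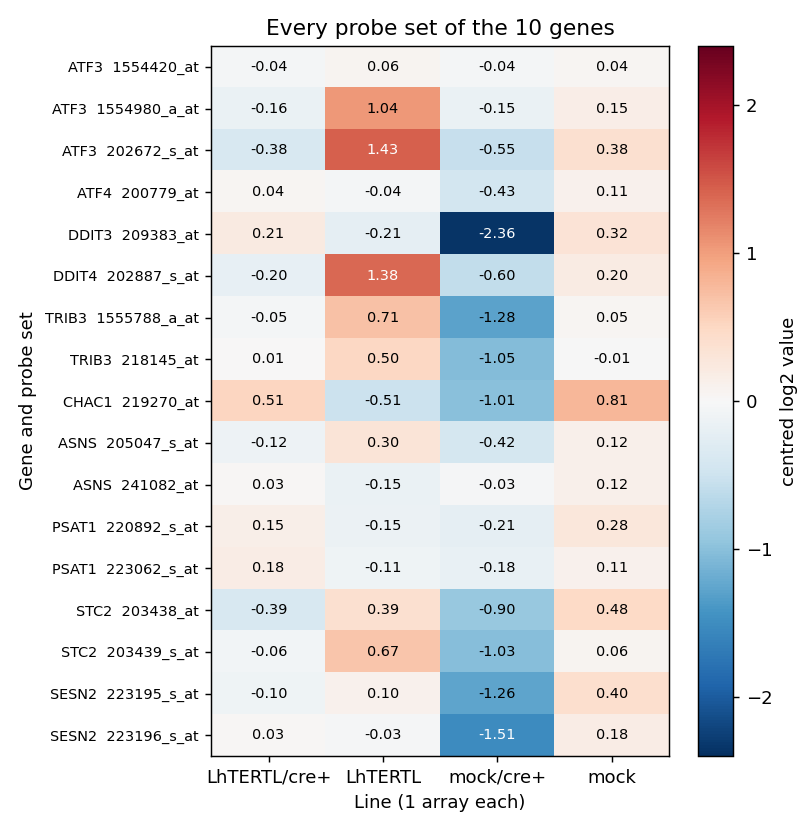
Centred log2 value of each of the 17 probe sets (rows, with gene name) on the 4 arrays (columns), coloured from blue (below the median of the 4 lines) to red (above it). The mock/cre+ column is the lowest in 15 rows, and LhTERTL reaches 1.43 in ATF3 and 1.38 in DDIT4.

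The long-telomere lines were compared with the short-telomere lines because the series asks how expression differs with telomere elongation. Only the long group holds a line labelled as overexpressing hTERT. All 10 members had a higher mean in the long group, by a median of 0.43 on the log2 scale, against -0.01 for all genes. The largest difference was that of DDIT3, with a mean of 0.00 in long-telomere lines and -1.02 in short-telomere lines, a difference of 1.02 ± 0.94 (SE, n = 2 per group). TRIB3 averaged 0.29 in long-telomere lines and -0.57 in short-telomere lines, 0.86 ± 0.47 apart, and DDIT4 0.59 and -0.20 in the same order, 0.79 ± 0.62 apart. SESN2 differed by 0.55 ± 0.58, STC2 by 0.50 ± 0.51, ATF3 by 0.35 ± 0.40, ATF4 by 0.16 ± 0.22, CHAC1 by 0.10 ± 0.72, ASNS by 0.07 ± 0.17 and PSAT1 by 0.02 ± 0.20. The differences of DDIT3, TRIB3 and DDIT4 were larger than their standard errors, and those of the other 7 members were not.

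None of the 10 passed the test (limma, two-sided, Benjamini-Hochberg adjusted over all genes, adjusted p = 1 for each), and 0 had an unadjusted p under 0.05. Over all genes 0% were called higher, and at an unadjusted p under 0.05 there were 0.45% higher and 0.339% lower. By gene means, no member had both long-telomere lines above both short-telomere lines, a pattern that 11.4% of all genes showed. By gene means, mock also lay above LhTERTL/cre+ in each member. Single probe sets differed. TRIB3 probe set 218145_at stood at 0.012 in LhTERTL/cre+ and -0.012 in mock, with both long-telomere lines above both short-telomere lines. PSAT1 probe set 223062_s_at stood at 0.18 in LhTERTL/cre+ and 0.11 in mock. Without the mock/cre+ array the median difference of the members was -0.11, and without mock it was 1.06.

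The Cre-matched pairs were then read separately. With Cre, LhTERTL/cre+ stood above mock/cre+ in 10 of 10 members, against 53% of all genes, with a median difference of 0.61. The difference was 2.57 for DDIT3, 1.52 for CHAC1, 1.35 for SESN2 and 1.14 for TRIB3, and these 4 members were at least 2-fold higher, against 0.394% of all genes. STC2 was higher by 0.74, ATF4 by 0.47, DDIT4 by 0.40, PSAT1 by 0.36, ASNS by 0.18 and ATF3 by 0.06. Without Cre, LhTERTL stood above mock in 4 of 10 members by gene means, against 45.1% of all genes, with a median of -0.09. DDIT4 was 1.18 higher in LhTERTL than mock, the only member at least 2-fold higher (2.24% of all genes), though 0 members reached 2-fold after quantile normalization, and CHAC1 was 1.32 lower on the log2 scale, the only one at least 2-fold lower (0.86% of all genes). ATF3 was higher by 0.65, TRIB3 by 0.58 and STC2 by 0.26. DDIT3 stood at -0.53, PSAT1 at -0.32, SESN2 at -0.25, ATF4 at -0.15 and ASNS at -0.04 in LhTERTL minus mock. Each pair has 1 array a line, so these are values without a test. The pair with Cre is labelled basal hTERT in both lines, whereas LhTERTL and mock differ in labelled hTERT as well. Telomere group and hTERT cannot be told apart in the pair without Cre.

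**Figure D3:**
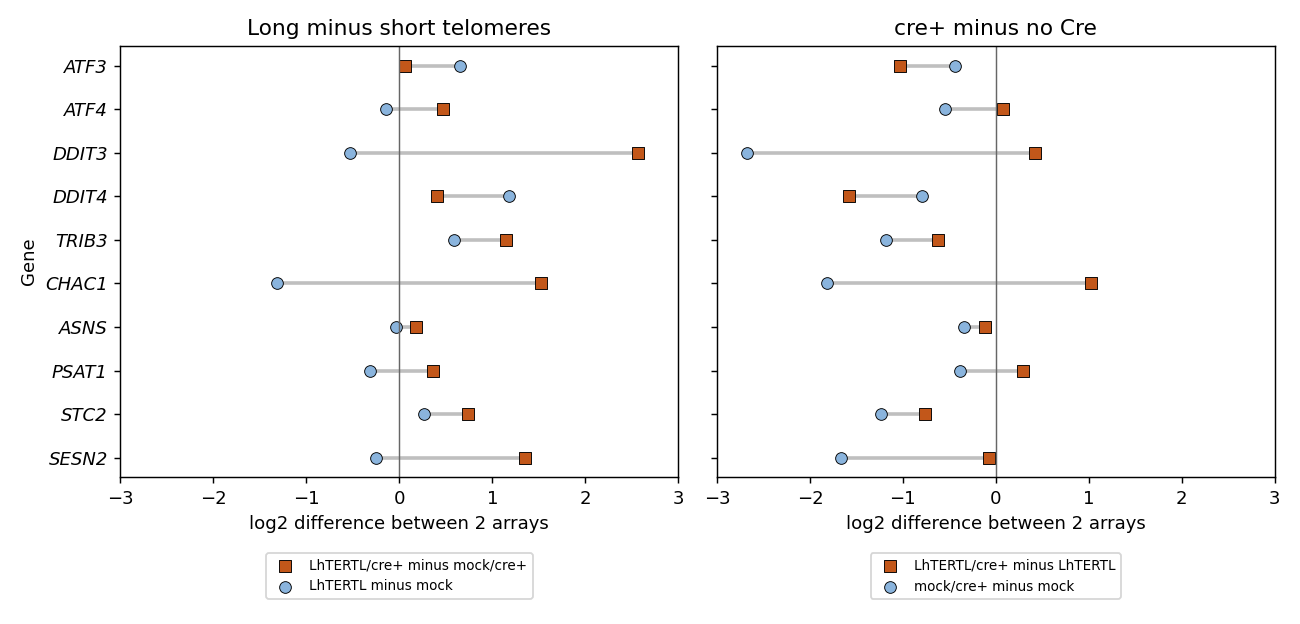
Log2 difference between 2 arrays (x axis) for each gene (rows), with the long minus short differences on the left panel and the cre+ minus no Cre differences on the right. A point is 1 array minus another, by gene means. DDIT3 and CHAC1 lie on opposite sides of 0 in the pairs of each panel, whereas TRIB3, STC2, DDIT4 and ATF3 lie on the same side. The single STC2 probe set 203438_at stood at -0.09 in LhTERTL minus mock.

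The cre+ lines were compared with lines without Cre, since Cre status differs within each telomere group. The line labelled as overexpressing hTERT is among those without Cre. All 10 members had a lower mean in the cre+ lines, with a median difference of -0.80, against -0.02 for all genes. DDIT4 averaged -0.40 in cre+ lines and 0.79 in lines without Cre, a difference of -1.19 ± 0.43 (SE, n = 2 per group). DDIT3 differed by -1.13 ± 0.89, STC2 by -0.998 ± 0.28, TRIB3 by -0.90 ± 0.45, SESN2 by -0.87 ± 0.47 and ATF3 by -0.74 ± 0.24. CHAC1 differed by -0.39 ± 0.69, ATF4 by -0.23 ± 0.20, ASNS by -0.23 ± 0.12 and PSAT1 by -0.05 ± 0.19.

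None of the 10 passed the test (limma, two-sided, Benjamini-Hochberg over all genes, adjusted p between 0.772 and 0.976). At an unadjusted p under 0.05 there were 3 members, all lower in cre+ lines, namely STC2, ATF3 and DDIT4, against 2.55% of all genes. Over all genes 0% were called lower. In 6 members both cre+ lines lay below both lines without Cre, against 20.1% of all genes. These were ATF3, DDIT4, TRIB3, ASNS, STC2 and SESN2. Without the mock/cre+ array the median of the members was -0.17.

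In the short-telomere pair, mock/cre+ stood below mock in 10 of 10 members, against 55.1% of all genes, with a median difference of -0.99. Of them 5 were at least 2-fold lower, against 0.647% of all genes. DDIT3 stood at -2.68, CHAC1 at -1.81, SESN2 at -1.67, STC2 at -1.24 and TRIB3 at -1.18. Below that size were DDIT4 at -0.80, ATF4 at -0.54, ATF3 at -0.44, PSAT1 at -0.39 and ASNS at -0.34. In the long-telomere pair, LhTERTL/cre+ minus LhTERTL was below 0 in 6 of 10 members, against 48.5% of all genes, with a median of -0.10. Cre status and the loss of overexpressed hTERT cannot be told apart in that pair. Of the 4 epithelial markers, 2 were at least 2-fold lower in LhTERTL/cre+ than LhTERTL, against 2.29% of all genes. The part of these markers in the values of the members was not tested. DDIT4 at -1.58 and ATF3 at -1.04 were at least 2-fold lower (2.29% of all genes, and 1 member after quantile normalization), and CHAC1, at 1.03, was at least 2-fold higher (1.52% of all genes). STC2 stood at -0.76, TRIB3 at -0.63, ASNS at -0.12, SESN2 at -0.07, ATF4 at 0.08, PSAT1 at 0.29 and DDIT3 at 0.42.

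LhTERTL/cre+, which had long telomeres with basal hTERT, was also compared with mock, which had short telomeres and no Cre. By gene means, all 10 members were lower in LhTERTL/cre+, against 52.6% of all genes. The median of the members was -0.23, against -0.01 for all genes, whose 1st percentile was -0.55. The members ranged from -0.50 (STC2) to -0.03 (PSAT1), so no member was 2-fold apart, and 0.121% of all genes were at least 2-fold lower. Probe sets 218145_at of TRIB3 and 223062_s_at of PSAT1 were higher in LhTERTL/cre+ than mock, by 0.024 and 0.075. Furthest down were 203438_at of STC2 at -0.87, 202672_s_at of ATF3 at -0.75 and 223195_s_at of SESN2 at -0.50. DDIT3, which spanned 2.68 over the 4 lines, differed by -0.11 between LhTERTL/cre+ and mock. These line against line values share arrays with the pairs above.

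**Figure D4:**
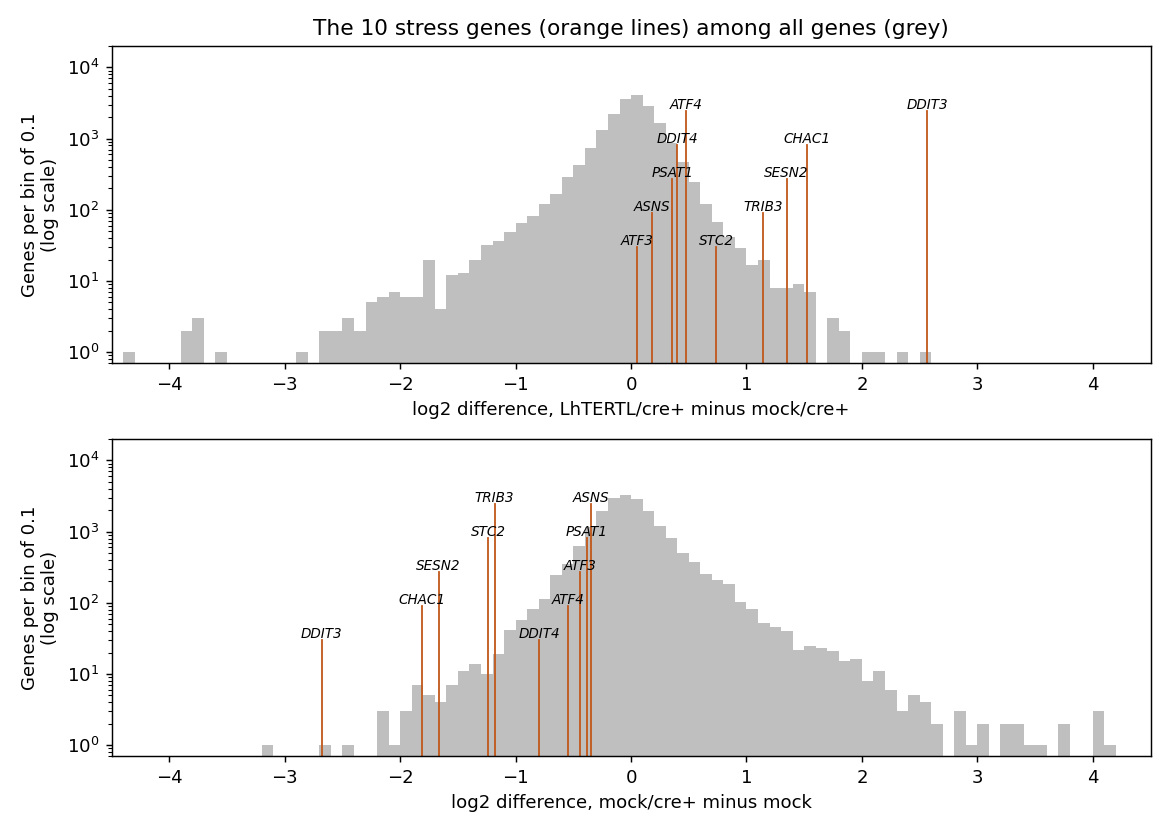
Number of genes per bin of 0.1 (y axis, log scale) by log2 difference (x axis), in LhTERTL/cre+ minus mock/cre+ (top) and mock/cre+ minus mock (bottom), with an orange line at the value of each of the 10 genes. The heights of the orange lines carry no value. DDIT3 is at 2.57 in the top panel and -2.68 in the bottom one, and both panels use the same mock/cre+ array.

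The authors' deposited table of higher probe sets holds 3 probe sets of the members, both of TRIB3 and 203439_s_at of STC2, against 0.227% of all probe sets. The authors' deposited table of lower probe sets holds 0 of them, against 0.236% of all probe sets. How these lists were chosen is not stated, and they were drawn from the same 4 arrays. The other STC2 probe set, 203438_at, stood at -0.39 in LhTERTL/cre+, 0.39 in LhTERTL, -0.90 in mock/cre+ and 0.48 in mock, so LhTERTL was below mock there.

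The wider pathway was read from 11 lists of related genes. Some genes are in several lists, so the counts of the lists are not independent. DNAJC3, for example, counts in the eIF2 list and the folding list, and DDIT4L in the paralog list and the mTORC1 list. No gene of any list passed the test between long and short telomeres or between cre+ lines and lines without Cre (limma, adjusted over all genes), so values are given for the 3 genes of each list with the widest range. Among kinases, phosphatases and other controls of eIF2, 8 of 16 genes were lowest in mock/cre+, against 30.4% of all genes. PPP1R15A (GADD34), the phosphatase subunit that reverses eIF2 phosphorylation, stood at -0.10 in LhTERTL/cre+, 0.40 in LhTERTL, -0.78 in mock/cre+ and 0.10 in mock. DNAJC3, an inhibitor of eIF2 kinases, stood at -1.41 in mock/cre+ and 0.09 in mock. EIF2AK4 (GCN2), the kinase that senses uncharged tRNA, had another order, with 0.12 in LhTERTL/cre+, -0.77 in LhTERTL, 0.20 in mock/cre+ and -0.09 in mock. Among basic leucine zipper partners and related factors, 6 of 11 were lowest in mock/cre+, against 30.4% of all genes. These included NUPR1, a stress-induced chromatin protein, at -1.10 in mock/cre+ and 0.30 in mock. NFE2L1 was another, at -0.42 in mock/cre+ and 0.21 in mock. JDP2, a close relative of ATF3, was lowest in mock, at -0.74, and highest in LhTERTL, at 0.71.

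Of 9 paralogs of the members, 5 were highest in mock/cre+, with no share of all genes to set beside that count. In the same line 2 were lowest, against 30.4% of all genes. Those 2, named after their values were seen, were DDIT4L and TRIB1, whose 4 lines stood in the order of DDIT4 and TRIB3, with values in mock/cre+ of -0.31 and -0.20. STC1, the paralog of STC2, stood at -0.57 in LhTERTL/cre+, 0.56 in LhTERTL, 0.63 in mock/cre+ and -0.77 in mock. TRIB2, a paralog of TRIB3, stood at -0.62 in LhTERTL/cre+, 0.49 in LhTERTL, 0.84 in mock/cre+ and -0.55 in mock. SESN1, a paralog of SESN2, was 0.39 in mock/cre+ and -0.29 in mock.

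Amino acid transporters were lowest in mock/cre+ in 10 of 14 genes, against 30.4% of all genes. SLC3A2, the heavy chain of several amino acid exchangers, stood at -0.28 in LhTERTL/cre+, 0.49 in LhTERTL, -1.45 in mock/cre+ and 0.28 in mock. SLC7A11, its cystine-importing partner, stood at -0.18, 0.52, -1.16 and 0.18 in the same 4 lines. SLC43A1, a transporter of large neutral amino acids, was -0.64 in mock/cre+ and 0.16 in mock. Cytosolic tRNA synthetases, which charge tRNAs, were lowest in mock/cre+ in 10 of 17 measured genes, against the same 30.4%. WARS1 stood at -0.06 in LhTERTL/cre+, 0.93 in LhTERTL, -0.83 in mock/cre+ and 0.06 in mock, AARS1 at -0.92 in mock/cre+ and 0.13 in mock, and CARS1 at -0.47 in mock/cre+ and 0.51 in mock.

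In serine, glycine and one-carbon synthesis, 5 of 8 genes were lowest in mock/cre+, with small medians, against 30.4% of all genes. SHMT2, the mitochondrial serine hydroxymethyltransferase, stood at -0.68 in mock/cre+ and 0.30 in mock, MTHFD2 at -0.45 in mock/cre+ and 0.17 in mock, and MTHFD1 at 0.22 in mock/cre+ and -0.63 in mock. Of the other amino acid synthesis genes 3 of 11 measured were lowest in mock/cre+, near that share. CTH, which makes cysteine from cystathionine, stood at 0.02 in LhTERTL/cre+, -0.02 in LhTERTL, -1.70 in mock/cre+ and 0.17 in mock, an order of lines like that of DDIT3. ASS1, of arginine synthesis, was highest in LhTERTL, at 1.62, and lowest in mock, at -1.08. GLUL, glutamine synthetase, was highest in mock/cre+, at 0.49.

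Among other reported ATF4 or CHOP targets, 16 of 24 measured genes were lowest in mock/cre+, against 30.4% of all genes. Of these 16, PPP1R15A, NUPR1, CEBPB, SLC7A11, NARS1 and HERPUD1 are counted in another list as well. In mock/cre+, 22 of the 24 were below mock, against 55.1% of all genes, and 4 were at least 2-fold lower, against 0.647%. VEGFA, the angiogenic growth factor, stood at -0.09 in LhTERTL/cre+, 1.32 in LhTERTL, -0.08 in mock/cre+ and 0.05 in mock, and so was set apart by LhTERTL, as DDIT4 was. VLDLR, a lipoprotein receptor, stood at 0.51 in mock/cre+ and -0.80 in mock. Genes of mTORC1 and its regulators were lowest in mock/cre+ in 4 of 20, below the 30.4% of all genes. RRAGD, a Rag GTPase of that pathway, stood at -0.73 in LhTERTL/cre+, 1.51 in LhTERTL, 0.73 in mock/cre+ and -1.45 in mock, and RRAGB at -0.40, 0.47, 0.36 and -0.36 in the same lines. In glutathione handling 3 of 8 were lowest in mock/cre+, near the 30.4% of all genes. GCLC, of glutathione synthesis, was highest in LhTERTL at 0.60, as was GCLM at 0.92, and GGCT was highest in mock/cre+ at 0.50.

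Among the folding genes of the ATF6 and IRE1 arms of the unfolded protein response, all 18 were lowest in mock/cre+, against 30.4% of all genes. Their median was -1.36 in mock/cre+ minus mock, and 13 were at least 2-fold lower, against 0.647% of all genes. DNAJB9, a chaperone of the endoplasmic reticulum, stood at -0.11 in LhTERTL/cre+, 0.33 in LhTERTL, -2.30 in mock/cre+ and 0.11 in mock. HYOU1 stood at -1.66 in mock/cre+ and CRELD2 at -1.25. In contrast with the members, of which 4 of 10 were highest in LhTERTL by gene means, 15 of these 18 were highest there, against 27.6% of all genes. The difference between the lists was not tested.

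**Figure D5:**
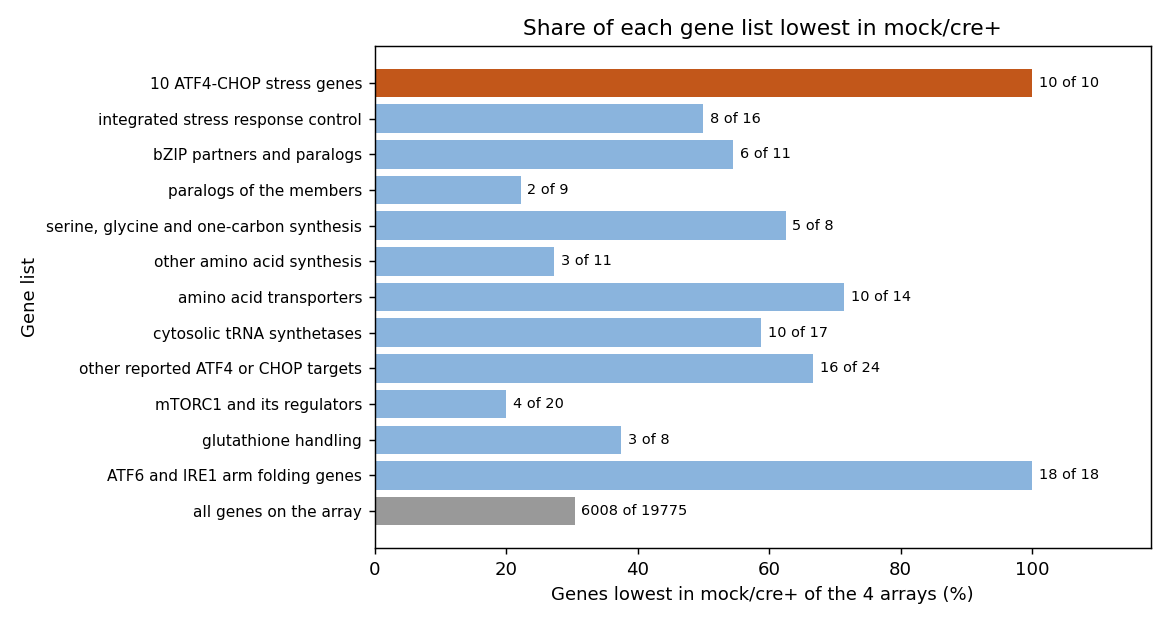
Share of genes whose lowest value of the 4 arrays is in mock/cre+ (x axis, percent), for the 10 stress genes (orange), 11 related gene lists (blue) and all genes on the array (grey), with counts beside the bars. The share is 10 of 10 for the stress genes, 18 of 18 for the folding genes and 6008 of 19775 for all genes. The stress genes and the lists were chosen with earlier results of these data known. Some genes are in several lists, so the blue bars are not independent.

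Genes outside these lists were ranked by how near their values were to the mean pattern of the 10 members over the 4 arrays, which was 0.10 in LhTERTL/cre+, 0.34 in LhTERTL, -0.78 in mock/cre+ and 0.33 in mock when each gene is centred on its mean. Among 1375 genes with a range of at least 1, the 6 nearest were NBPF1, SEC24D, CDK2AP2, POLD4, ST20-AS1 and PDIA3, with root mean square distances of 0.028, 0.046, 0.047, 0.059, 0.060 and 0.079. SEC24D is a coat protein of vesicles leaving the endoplasmic reticulum, and PDIA3 is a protein disulfide isomerase of that compartment. NBPF1 belongs to a family of near-identical copies, so its value is uncertain. Of the members themselves STC2 lay nearest to the mean pattern, at 0.19, and DDIT3 furthest, at 0.67. With 4 arrays, many genes can share an order of lines, and the distance is a description.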

How the data were processed

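RNA of 4 PC-3 derivatives was hybridised to 1 Affymetrix array each. The deposited values are log2 values made with RMA, per the submitters' processing notes; the sources used here name no software or version. Every probe set of the deposited table has a median of 0 over the 4 arrays (tolerance 1e-05), so levels are unknown and no filter on low values was possible. The authors also deposited lists of 124 higher and 129 lower probe sets, from which only probe set names were taken, because the lower list has the values of LhTERTL and mock/cre+ exchanged in relation to the full table, which was used for all values.

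After 62 control probe sets were left out, 41091 of 54613 had 1 symbol, 1801 several and 11721 none. A RefSeq table (assembly GRCh38.p14) matched 41037 and changed 0 symbols. Genes were the mean of their probe sets. Groups came from the labelled telomere length, and Cre status from the line names. Both contrasts were fitted over all 19775 genes by eBayes without a variance trend (limma 3.58.1 under R 4.3.3). The tests were two-sided, and p-values were adjusted after Benjamini-Hochberg with a threshold of 0.05. Errors given as SE are limma's moderated standard errors. On simulated arrays of 19775 genes, no 2-fold change was recovered (0% in each fit), and of 4-fold changes the long minus short fit recovered 64.5% and the Cre fit 69.5%.

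Named were all members, the 3 genes of widest range per list and the 6 genes nearest to the mean member pattern. Members and lists were chosen with earlier results of these data known. Alternatives covered the probe set summary, variance model, blocks, scaling, an SD filter and leaving out each array. Python 3.11.15, numpy 2.4.6, pandas 2.3.3 and matplotlib 3.10.9 were used for the rest.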

Additional observations from a re-analysis of the deposited data

Results flagged for a closer look

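For several members the same comparison went opposite ways in the 2 pairs of lines. Each pair has 1 array a line, so these differences were not tested.

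The cre+ minus no Cre difference had opposite signs in the long-telomere and the short-telomere pair for 4 members. DDIT3 stood at 0.42 in LhTERTL/cre+ minus LhTERTL and at -2.68 in mock/cre+ minus mock. CHAC1 stood at 1.03 and -1.81 in the same pairs, PSAT1 at 0.29 and -0.39, and ATF4 at 0.078 and -0.54.

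By gene means, long minus short telomeres went opposite ways with and without Cre for 6 members. The pair without Cre also differs in labelled hTERT, which is overexpressed in LhTERTL and basal in mock. With Cre and without it, DDIT3 stood at 2.57 and -0.53, CHAC1 at 1.52 and -1.32, SESN2 at 1.35 and -0.25, ATF4 at 0.47 and -0.15, PSAT1 at 0.36 and -0.32, and ASNS at 0.18 and -0.041. For ASNS the probe sets disagreed, with 205047_s_at at 0.30 and 0.19 and 241082_at at 0.06 and -0.27. The change of sign of ASNS therefore rests on the second probe set. STC2 kept its sign as a gene mean, but 203438_at stood at 0.51 and -0.09 and 203439_s_at at 0.97 and 0.61. The Cre and the telomere readings rest on the same 4 arrays, and the value in mock/cre+ enters each of them. Without that array the median of the members went from -0.80 to -0.17 in cre+ minus no Cre. In long minus short telomeres it went from 0.43 to -0.11. Whether the values of mock/cre+ are those of the line or of the single array was not tested, since no second array of the line was analysed here.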

How the results depend on the processing

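The number of members called was 0 in each contrast under every alternative run, and no second tool was run. With the lines paired, by Cre status as a block for the telomere fit and telomere group as a block for the Cre fit, it was also 0. The labels give no replicate numbers to pair by. Filters on low levels could not be run on centred values, and DDIT4, PSAT1 and SESN2 dropped out when _s_at and _x_at probe sets were left out. Leaving out single arrays moved the median of the members between -0.11 and 1.06 for long minus short telomeres, and between -1.26 and -0.17 for cre+ minus no Cre. Signs turned for 8 members in long minus short telomeres, which ranged from -0.16 to 0.87 (ATF3), -0.11 to 0.43 (ATF4), -0.32 to 2.36 (DDIT3), -0.81 to 1.01 (CHAC1), -0.10 to 0.24 (ASNS), -0.17 to 0.21 (PSAT1), -0.12 to 1.12 (STC2) and -0.29 to 1.38 (SESN2). In cre+ minus no Cre they turned for 4, from -0.47 to 0.0044 (ATF4), -2.41 to 0.15 (DDIT3), -1.15 to 0.37 (CHAC1) and -0.23 to 0.13 (PSAT1). Such groups are no longer matched for the other factor, and an arm with 1 array is assumed to vary like the other. With the probe set of highest SD, PSAT1 stood at -0.036 in long minus short telomeres, and without _s_at and _x_at probe sets ASNS stood at -0.10 there and at 0.017 in cre+ minus no Cre. Members at least 2-fold higher in LhTERTL than mock numbered 2 at 1.5-fold, 2 with the probe set of highest SD and 0 after quantile normalization. Those at least 2-fold lower in LhTERTL/cre+ than LhTERTL numbered 4 at 1.5-fold and 1 after quantile normalization. The cause was not tested beyond these settings.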
